A study of Mus musculus with 89 samples.

Results

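The level of 10 genes was followed in mouse embryonic stem cells (ESCs) that had lost the nuclear receptors Esrrb, Nr5a2 or both. The genes are Lrrc2, Notch4, Gca, Hopx, Adgre5, Jam2, Dgke, Tmem64, Enox1 and Chchd10, which are 10 of 54146 genes in the deposited tables. They were selected because the double loss lowered them beyond the sum of the single losses on the log2 scale in one or both culture media, so that departure describes how they were selected and is no finding. Of the 34 genes with such a call in either medium (5 in FCS/LIF, 30 in 2i/LIF, 1 in both), they are 10.

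Values come from 20 RNA-seq libraries, of which 8 are from cells in serum with LIF (FCS/LIF, 4 states in 2 replicates) and 12 from cells in serum-free medium with LIF and inhibitors of MEK and GSK3 (2i/LIF, 4 states in 3 replicates). All 4 states share the knock-out of the endogenous Esrrb gene, with Esrrb supplied by a transgene that needs doxycycline (Dox), in the EKOiE line. Cells of this line kept in Dox at 1 µg/ml are called +E+N, and those without Dox for 2 days are called −E. In the derived NrKO cells exon 4 of Nr5a2 was disrupted on both alleles, and they are called −N with Dox and −E−N when Dox was left out for 2 days. The NrKO cells descend from single cells, and effects of that descent and of Nr5a2 loss cannot be told apart, nor can medium and culture batch. The study describes the libraries of a group as independent experiments, and what libraries with the same replicate number share is not stated.

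Esrrb and Nr5a2 are orphan nuclear receptors that can bind, as monomers, closely related DNA sequences built on an extended AGGTCA half-site. The paper proposes that in ESCs both activate genes more directly than they repress them. In naive ESCs they belong to the network that holds pluripotency, and Esrrb is among the targets through which inhibition of GSK3 sustains self-renewal. A combined response to the loss of 2 factors can be compared with the product of their separate responses, which is a sum on the log2 scale. The interaction used here is the log2 change in −E−N less the log2 changes in −E and in −N, each against +E+N. It is below 0 where the double loss left less RNA than that product.

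The promoters of the pair of genes that varied most alike over the libraries (Lrrc2 and Chchd10) and of the gene with the lowest interaction (Notch4) are shown because the 10 genes were selected on the loss of receptors with a known half-site. The sequences are the 250 bases before the RefSeq start of each gene in build GRCm38.p6, all on the plus strand, at chr9:110951295-110951544 (Lrrc2), chr10:75932880-75933129 (Chchd10) and chr17:34564045-34564294 (Notch4). Capitals mark AGGTCA or its reverse TGACCT, and ATGCAAAT, the octamer bound by Oct4 and related factors, which was searched for after the Chchd10 sequence had been seen.
Lrrc2: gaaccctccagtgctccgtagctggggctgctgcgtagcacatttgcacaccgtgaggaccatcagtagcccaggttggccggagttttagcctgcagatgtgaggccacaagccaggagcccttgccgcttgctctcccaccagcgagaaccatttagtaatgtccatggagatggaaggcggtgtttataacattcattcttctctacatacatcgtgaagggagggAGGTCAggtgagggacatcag
Chchd10: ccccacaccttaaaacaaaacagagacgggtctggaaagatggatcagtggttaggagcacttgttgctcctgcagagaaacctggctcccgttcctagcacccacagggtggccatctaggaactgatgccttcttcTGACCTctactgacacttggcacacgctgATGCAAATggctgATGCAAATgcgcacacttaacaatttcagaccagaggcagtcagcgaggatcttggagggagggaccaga
Notch4: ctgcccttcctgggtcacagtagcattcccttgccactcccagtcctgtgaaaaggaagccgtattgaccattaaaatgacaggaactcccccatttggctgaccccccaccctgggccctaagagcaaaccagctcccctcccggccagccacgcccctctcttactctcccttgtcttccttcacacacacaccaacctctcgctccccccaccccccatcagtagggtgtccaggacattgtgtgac

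RefSeq windows were at hand for 7 of the 10 genes, 8 windows in all because Hopx has 2 starts, with none for Adgre5, Jam2 or Tmem64. Lrrc2 holds AGGTCA from 21 to 16 bases before its start. Chchd10 holds TGACCT from 112 to 107 bases before its start and ATGCAAAT at 83 and again at 70 bases before it. AGGTCA stood on either strand in 2 of the 8 windows and in 14.02% of 32851 promoter windows of that length, and ATGCAAAT in 1 of 8 and in 1.601% of all. The longer forms AAGGTCA and AAGGCCA, which contain or resemble the shorter one, were in none of the 8 windows, against 4.08% and 5.24% of all. TCAAGGTCA and TCAAGGCCA were in none either, against 0.387% and 0.511% of all. These matches describe letters in a short window.

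All 10 genes passed the filter of 20 counts in every replicate of at least 1 state in both media. In FCS/LIF all 10 would have passed in each of the 4 states, and in 2i/LIF 9, since Hopx had 15 to 21 counts per library in −E−N. Levels are given as CPM, the counts of a gene per 1000000 counts of the scaled library total, and genes are compared with each other as TPM, which also divides by transcript length. In TPM the levels in +E+N in FCS/LIF ran from 595 ± 12.8 (SD, n = 2) for Chchd10 and 39.8 ± 3.22 for Jam2 down to 2.82 ± 0.757 for Hopx. In 2i/LIF Chchd10 was again highest at 511 ± 40.1 (SD, n = 3) and Enox1 lowest at 0.453 ± 0.21. Hopx, Dgke and Notch4 had the lowest TPM in FCS/LIF, and Enox1, Hopx and Dgke in 2i/LIF.

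**Figure D1:**
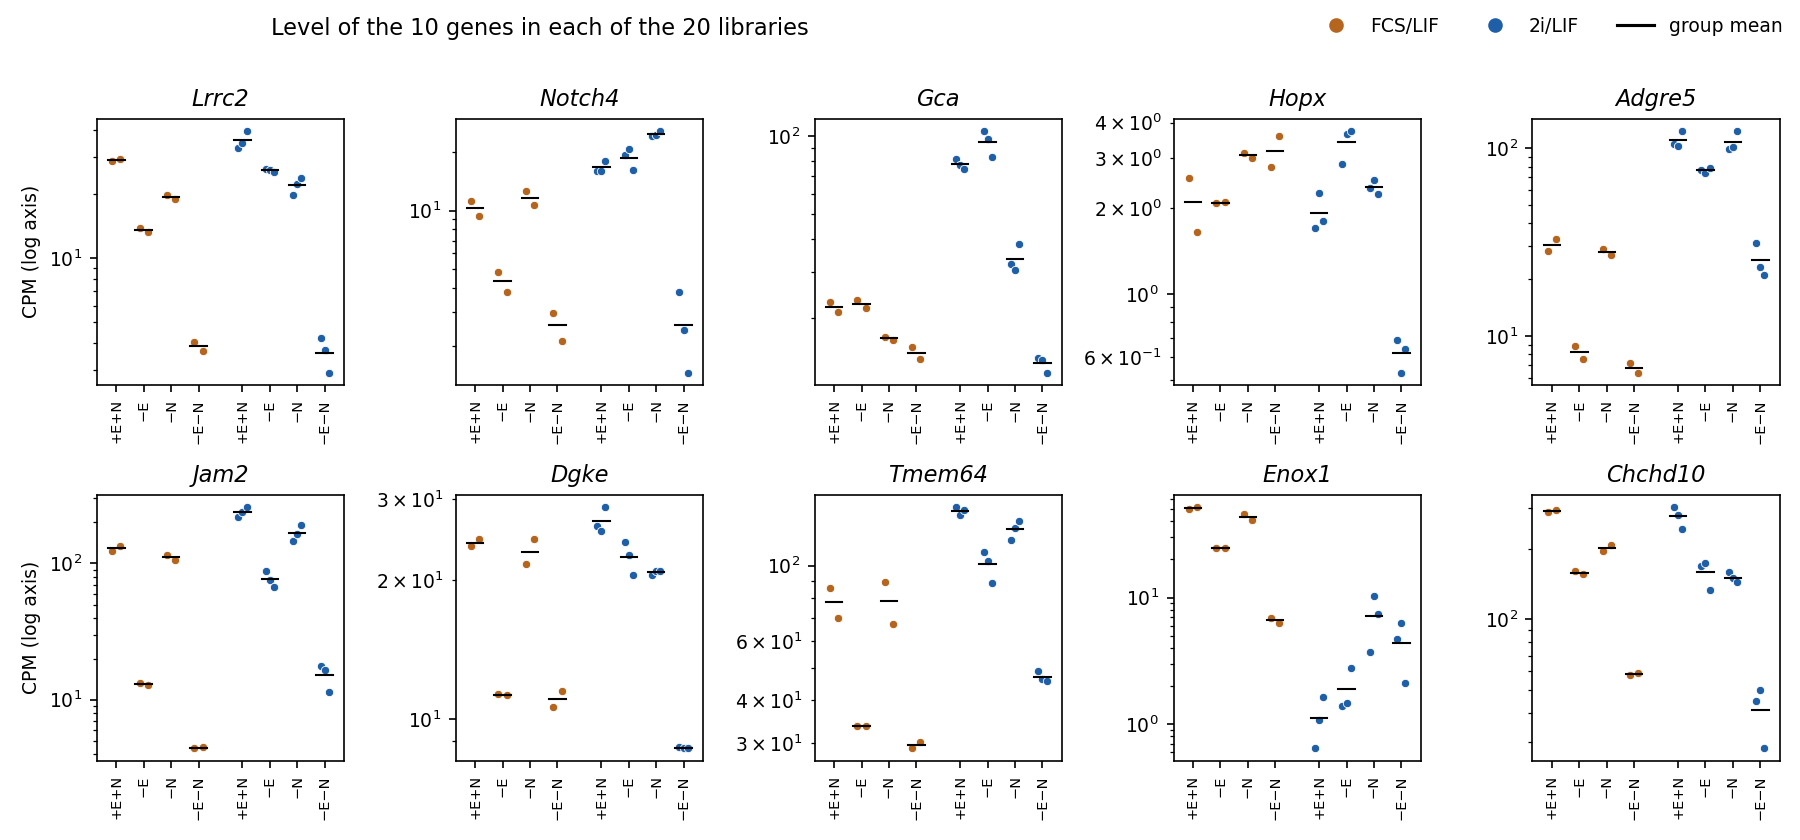
Level in CPM, as in the text (log axis, its range set for each gene), of each of the 10 genes in every library, by state, with FCS/LIF on the left of each panel and 2i/LIF on the right; points are libraries and lines group means. The −E−N libraries are the lowest of their medium in 8 of 10 genes in FCS/LIF and in 9 of 10 in 2i/LIF, and Hopx in FCS/LIF and Enox1 in 2i/LIF are the genes whose −E−N libraries stand above those of +E+N.

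The targeted genes were read first. Esrrb RNA in FCS/LIF was 312 ± 57.7 for +E+N, 69.7 ± 6.44 for −E, 239 ± 28.9 for −N and 30.1 ± 1.72 for −E−N (SD, n = 2). In 2i/LIF it was 576 ± 52.9 for +E+N, 419 ± 33.2 for −E, 491 ± 65.9 for −N and 145 ± 36.2 for −E−N (SD, n = 3). The counts for Esrrb do not separate RNA of the transgene from any RNA of the knocked-out locus. Every −E−N library was below every −E library in Esrrb RNA in both media, and the part of this in the interaction of the 10 genes was not tested. Nr5a2 RNA, which includes transcripts of the disrupted alleles, was 26.4 ± 1.14 in −N and 9.72 ± 0.767 in −E−N in FCS/LIF, and 68.9 ± 8.26 and 33.8 ± 12.6 in 2i/LIF, so its count does not report functional Nr5a2.

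The state of the cells differed between the groups as well. The summed TPM of 6 ESC markers (Pou5f1, Sox2, Nanog, Zfp42, Tfcp2l1 and Klf4) was 2140 to 2260 in +E+N and 1140 to 1310 in −E−N in FCS/LIF, and 2430 to 2660 against 1250 to 1670 in 2i/LIF, with no marker at 0 in any library. After double loss 6 of 6 were called lower in FCS/LIF and 5 of 6 in 2i/LIF. Pou5f1 made up most of the ESC sum, with mean TPM going from 1388 in +E+N to 994 in −E−N in FCS/LIF. Zfp42 went there from 380 to 39.4 TPM and Klf4 from 27.4 to 3.38. The summed TPM of 6 trophectoderm markers (Cdx2, Gata3, Elf5, Krt7, Krt8 and Krt18) was 236 to 287 in +E+N and 1130 to 1750 in −E−N in FCS/LIF, and 9.38 to 12.9 against 173 to 296 in 2i/LIF. In 2i/LIF this sum was 63.5 to 71.1 in −N and 7.58 to 10.3 in −E. After double loss 6 of 6 trophectoderm markers were called higher in FCS/LIF and 5 of 5 tested in 2i/LIF, and none was at 0 in any library. The keratin genes Krt8 and Krt18 made up most of the trophectoderm sum in −E−N, at 718 and 642 TPM in FCS/LIF and 86.9 and 94 in 2i/LIF. Cdx2, Gata3 and Elf5 were at 4.3, 6.7 and 1.24 TPM in −E−N in FCS/LIF and at 27.1, 0.917 and 0.463 in 2i/LIF. The sum of 3 neural markers was 13.3 to 13.4 in +E+N and 39.2 to 40.2 in −E−N in FCS/LIF, and 7.6 to 9.88 against 9.74 to 11.5 in 2i/LIF. The sum of 4 mesoderm markers was 1.5 to 1.96 against 5.31 to 6.49 in FCS/LIF, and 5.26 to 5.85 against 4.94 to 11.2 in 2i/LIF. For 5 primitive endoderm markers it was 5.88 to 9.02 against 6.88 to 8.51 in FCS/LIF, and 1.52 to 2.5 against 5.5 to 7.64 in 2i/LIF. Neural and mesoderm sums were thus higher in −E−N without overlap in FCS/LIF, and the primitive endoderm sum in 2i/LIF. Single markers of these lists went both ways. Of 3 neural markers in FCS/LIF 2 were called higher and 1 lower, with mean TPM going from 7.57 to 35.3 for Nes and from 4.83 to 2.12 for Pax6. Of 4 primitive endoderm markers tested in 2i/LIF 2 were called higher and 1 lower. Foxa2 went from 0.52 to 4.04 TPM there and Gata4 from 0.43 to 0.213. Sums of 4 fibroblast markers lay between 0.53 and 6.64 over all libraries. Of that list Postn was at 0 in 11 libraries, and of the mesoderm list Mesp1 was at 0 in 7. The share of these marker changes in the levels of the 10 genes was not tested, and in bulk samples fewer cells that express a gene and less RNA per cell cannot be told apart.

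Proteins of the cell surface are described first. Jam2 encodes a junctional adhesion molecule, an immunoglobulin-type receptor of cell contacts. In FCS/LIF its level was 124 and 134 CPM for +E+N, 13.3 and 12.9 for −E, 116 and 105 for −N and 4.39 and 4.50 for −E−N. In 2i/LIF it was 218, 237 and 261 for +E+N, 88.1, 75.1 and 67.2 for −E, 146, 166 and 190 for −N and 17.6, 16.6 and 11.5 for −E−N. The 4 states did not overlap in either medium, in the order +E+N, −N, −E and −E−N. The log2 change after double loss was −4.88 ± 0.09 (SE) in FCS/LIF and −3.96 ± 0.17 in 2i/LIF, the lowest of the 10 genes in each medium. Dox withdrawal alone gave −3.32 ± 0.08 in FCS/LIF and −1.63 ± 0.15 in 2i/LIF. The log2 interaction was −1.31 ± 0.11 and −1.81 ± 0.21, and Jam2 is the 1 gene called in both media.

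Notch4 encodes a receptor of the Notch pathway, in which a ligand on a neighbouring cell releases the receptor's intracellular part to act with Rbpj in the nucleus. In FCS/LIF its level was 11.2 and 9.41 CPM for +E+N, 4.81 and 3.81 for −E, 12.6 and 10.7 for −N and 2.97 and 2.13 for −E−N. In 2i/LIF it was 16.0, 16.1 and 18.1 for +E+N, 19.3, 20.8 and 16.1 for −E, 24.3, 24.6 and 25.9 for −N and 3.81, 2.40 and 1.45 for −E−N. In 2i/LIF the −E libraries overlapped +E+N, all −N libraries stood above all +E+N libraries, and all −E−N libraries stood below every other. The log2 change in −N in 2i/LIF was 0.57 ± 0.20 (SE) and was not called, and that in −E−N was −2.69 ± 0.23. The log2 interaction was −3.43 ± 0.31 in 2i/LIF, the lowest of the 10 genes, and −0.92 ± 0.27, not called, in FCS/LIF.

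Adgre5 encodes CD97, an adhesion G protein-coupled receptor that binds CD55. Its level in FCS/LIF was 28.3 and 33.0 CPM for +E+N, 8.87 and 7.58 for −E, 28.9 and 27.1 for −N and 7.15 and 6.38 for −E−N. In 2i/LIF it was 106, 103 and 123 for +E+N, 76.3, 74.2 and 78.4 for −E, 99.8, 102 and 124 for −N and 31.4, 23.3 and 21.2 for −E−N. In both media −N overlapped +E+N. In FCS/LIF the fall after double loss, −2.20 ± 0.12 in log2 (SE), lay close to that after Dox withdrawal alone, −1.92 ± 0.12, and the interaction was −0.13 ± 0.16. In 2i/LIF the log2 changes were −0.54 ± 0.13 in −E and −2.12 ± 0.14 in −E−N, with an interaction of −1.55 ± 0.18.

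Gca encodes grancalcin, a calcium-binding protein of the penta-EF-hand family. In FCS/LIF its level was 23.1 and 21.1 CPM for +E+N, 23.4 and 21.8 for −E, 16.9 and 16.5 for −N and 15.4 and 13.9 for −E−N. In 2i/LIF it was 81.4, 77.4 and 74.8 for +E+N, 105, 96.95 and 82.5 for −E, 32.2, 30.4 and 38.5 for −N and 13.97, 13.8 and 12.3 for −E−N. In 2i/LIF Gca had the lowest change in −N of the 10 genes, and its −N libraries lay below and the −E libraries above all +E+N libraries. The log2 change in 2i/LIF was 0.29 ± 0.10 (SE) for −E, −1.21 ± 0.10 for −N and −2.53 ± 0.11 for −E−N, with an interaction of −1.60 ± 0.15. In FCS/LIF the change in −E−N was −0.61 ± 0.09 and the interaction −0.20 ± 0.13.

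Dgke encodes a diacylglycerol kinase, which turns diacylglycerol into phosphatidic acid, and Tmem64 a transmembrane protein of the VTT-domain family linked to the calcium pump of the endoplasmic reticulum. The level of Dgke in 2i/LIF was 26.1, 25.6 and 28.8 CPM for +E+N, 24.2, 22.7 and 20.5 for −E, 20.6, 21.0 and 20.9 for −N and 8.71, 8.66 and 8.69 for −E−N. In FCS/LIF it was 23.7 and 24.6 for +E+N, 11.3 and 11.3 for −E, 21.6 and 24.5 for −N and 10.7 and 11.6 for −E−N. In FCS/LIF the −E and −E−N libraries of Dgke overlapped, whereas in 2i/LIF every −E−N library lay below every other. The level of Tmem64 in FCS/LIF was 85.7 and 70.0 CPM for +E+N, 33.7 and 33.7 for −E, 89.3 and 67.4 for −N and 28.9 and 30.2 for −E−N. In 2i/LIF Tmem64 was at 149, 141 and 146 for +E+N, 110, 103 and 89.1 for −E, 119, 129 and 136 for −N and 49.0, 46.3 and 45.6 for −E−N. Dgke thus had near equal levels in −E and −E−N in FCS/LIF, while both −E−N libraries of Tmem64 lay below both −E libraries. The log2 interactions of Dgke and Tmem64 were 0.06 ± 0.13 (SE) and −0.18 ± 0.19 in FCS/LIF. In 2i/LIF they were −0.99 ± 0.12 for Dgke and −0.90 ± 0.11 for Tmem64, the smallest among the 8 called there.

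Hopx encodes a homeodomain protein that does not itself bind DNA and acts through other factors. In FCS/LIF its level was 2.56 and 1.65 CPM for +E+N, 2.09 and 2.10 for −E, 3.13 and 3.01 for −N and 2.79 and 3.59 for −E−N. In 2i/LIF it was 1.70, 2.27 and 1.81 for +E+N, 2.86, 3.63 and 3.74 for −E, 2.36, 2.51 and 2.25 for −N and 0.690, 0.530 and 0.643 for −E−N. All −E libraries in 2i/LIF stood above, and all −E−N libraries below, the +E+N libraries, while in FCS/LIF both −E−N libraries stood above both +E+N libraries. The log2 interaction was −2.73 ± 0.30 (SE) in 2i/LIF and 0.08 ± 0.33 in FCS/LIF. These values rest on 15 to 145 counts per library.

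Lrrc2, which encodes a leucine-rich repeat protein, had in FCS/LIF 28.6 and 29.2 CPM for +E+N, 13.9 and 13.3 for −E, 19.9 and 19.1 for −N and 4.05 and 3.69 for −E−N. In 2i/LIF it had 33.0, 34.7 and 39.7 for +E+N, 26.2, 25.9 and 25.5 for −E, 19.8, 22.2 and 23.9 for −N and 4.21, 3.71 and 2.91 for −E−N. The 4 states of Lrrc2 did not overlap in either medium, and −E and −N changed places between the media. The log2 change after double loss was −2.92 ± 0.09 (SE) in FCS/LIF and −3.29 ± 0.13 in 2i/LIF. The log2 interaction was −1.22 ± 0.13, not called, and −2.12 ± 0.17.

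Chchd10 encodes a small protein of the mitochondrial intermembrane space. Its level in FCS/LIF was 289 and 292 CPM for +E+N, 160 and 156 for −E, 196 and 207 for −N and 58.2 and 58.9 for −E−N. In 2i/LIF it was 303, 281 and 244 for +E+N, 168, 174 and 134 for −E, 159, 150 and 144 for −N and 44.8, 50.2 and 28.1 for −E−N. Both single-loss groups lay below all +E+N libraries in both media, with overlap of −E and −N in 2i/LIF. The log2 interaction was −0.89 ± 0.07 (SE) in FCS/LIF and called, and −1.07 ± 0.24 in 2i/LIF and not called. The larger value thus had the wider error.

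Enox1, which encodes an ecto-NOX protein with disulfide-thiol exchange activity, went in opposite directions in the 2 media. In FCS/LIF its level was 50.3 and 52.3 CPM for +E+N, 24.6 and 24.7 for −E, 45.8 and 41.2 for −N and 6.94 and 6.28 for −E−N. In 2i/LIF it was 0.642, 1.08 and 1.64 for +E+N, 1.39, 1.48 and 2.77 for −E, 3.70, 10.3 and 7.38 for −N and 4.67, 6.25 and 2.10 for −E−N. In 2i/LIF the −N and −E−N libraries stood above all +E+N libraries and overlapped each other. The log2 change after double loss was −2.98 ± 0.09 (SE) in FCS/LIF and 1.97 ± 0.50 in 2i/LIF. The log2 interaction was −1.64 ± 0.11 in FCS/LIF and −1.45 ± 0.68, not called, in 2i/LIF, where 20 to 280 counts per library were read.

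Single losses were called for most of the 10 genes after Dox withdrawal in FCS/LIF, and for few in 2i/LIF (edgeR quasi-likelihood test, adjusted p under 0.01 and fold over 1.5). As the members were selected on these 4 states, the counts and the shares of all tested genes beside them are a description from which nothing is read. After Dox withdrawal 8 of 10 were lower in FCS/LIF (all but Gca and Hopx; 2.53% of 15636 tested genes were called lower) and 1 of 10, Jam2, in 2i/LIF (1.11% of 14355). In −N 0 of 10 were called lower in FCS/LIF (0.0959% of all), with 5 of 10 at an unadjusted p under 0.05 and 0 by DESeq2, and in 2i/LIF 3 of 10 were lower, Gca, Chchd10 and Lrrc2 (2.04%), and Enox1 was higher. In −E−N 9 of 10 were lower in FCS/LIF, all but Hopx (6.4% lower and 18.8% in either direction), and 9 of 10 in 2i/LIF, all but Enox1, which was higher (9.56% and 18.6%). The median log2 change in −E−N was −2.12 over the 10 genes and 0 over all tested genes in FCS/LIF, and −2.32 against 0.01 in 2i/LIF. The 2i/LIF count for −E was 2 with DESeq2, without −E replicate 1 or without −E−N replicate 3. The 2i/LIF count for −N was 1 without +E+N replicate 2 or 3 or without −N replicate 1 or 2, and 2 without +E+N replicate 1 or −N replicate 3. The FCS/LIF count for −N was 1 without −N replicate 2.

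Set against each single loss, 5 of 10 were lower in −E−N than in −E in FCS/LIF (Gca, Chchd10, Jam2, Lrrc2 and Enox1; 1.53% of all) and 9 of 10 in 2i/LIF (6.21%). Against −N, 8 of 10 were lower in FCS/LIF (3.49%) and 9 of 10 in 2i/LIF (3.36%). Every −E−N library lay below every other library of its medium for 8 of 10 genes in FCS/LIF (19.3% of all tested genes) and for 9 of 10 in 2i/LIF (11.5%). The exceptions were Hopx and Dgke in FCS/LIF and Enox1 in 2i/LIF.

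The interaction, for which an adjusted p under 0.01 sufficed whatever its size, was called for 3 of 10 genes in FCS/LIF (Jam2, Enox1 and Chchd10) and for 8 of 10 in 2i/LIF (all but Enox1 and Chchd10). Over all tested genes 0.032% were called lower in FCS/LIF, and the same 0.032% in either direction because 0 were called higher, with 786 higher at an unadjusted p under 0.05 and 9 called higher by DESeq2. In 2i/LIF 0.209% were called lower and 0.307% in either direction. The last gene inside the limit was Nr0b1 in FCS/LIF, with a log2 interaction of −2.72 and an adjusted p of 0.00572, and the first outside it was Lrrc2 at −1.22 and 0.0126. In 2i/LIF these were Hoxb13 at −2.12 and 0.00967 and Gpx4 at −0.51 and 0.0108. The number of calls in FCS/LIF depended on single libraries, since 0 of 10 were called without any one of the +E+N, −E and −E−N libraries and 3 of 10 without either −N library, while the interaction of the 3 genes stayed below 0 throughout. In 2i/LIF 4 of 10 were called without +E+N replicate 2 or −N replicate 2, and 6 to 8 without any other library. By limma on log2(TPM + 1) 0 of 10 were called in FCS/LIF and 2 of 10 in 2i/LIF, and with all 20 libraries in one fit 0 and 9.

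**Figure D2:**
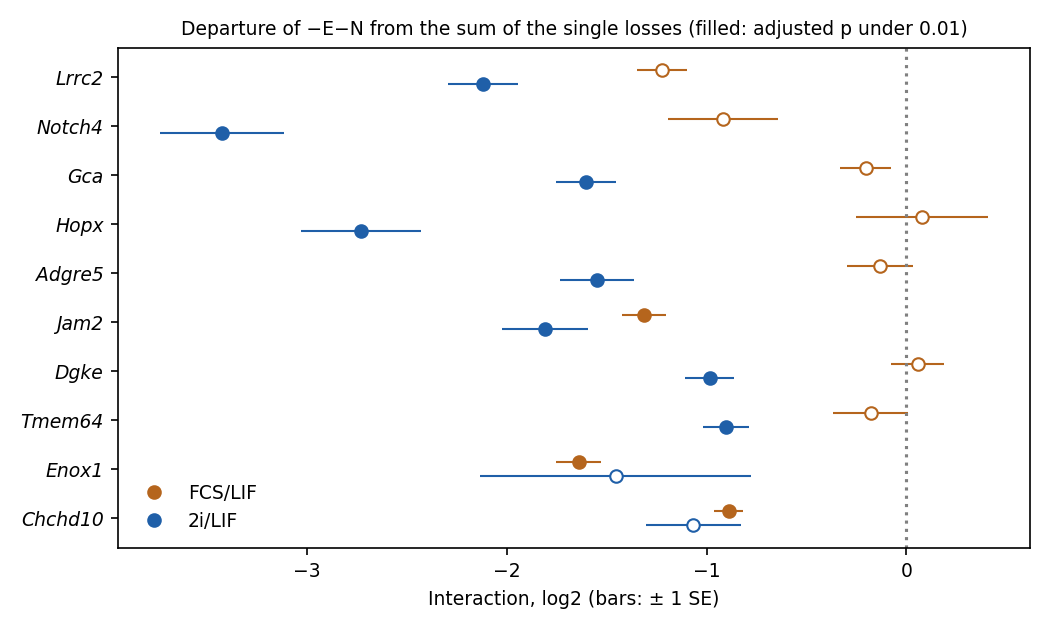
Log2 interaction of each gene in FCS/LIF and 2i/LIF, with ± 1 SE from the edgeR fit; filled points have an adjusted p under 0.01 and the dotted line marks the sum of the single losses. The values chose the genes: those of 2i/LIF run from −3.43 to −0.90, and 8 of 10 in FCS/LIF lie below 0.

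Expressed as level, the −E−N mean was compared with the product of the 2 single responses applied to +E+N. In 2i/LIF Notch4 was at 2.56 CPM against a product of 27.9 CPM, or 9.16% of it. Hopx was at 14.8% and Lrrc2 at 22.7% of their products, and the other members of that medium lay between 28.2% (Jam2) and 52.9% (Tmem64). In FCS/LIF Enox1 was at 31.6% of its product, Jam2 at 39.7%, Lrrc2 at 42.2%, Notch4 at 52.4% and Chchd10 at 53.3%, and the other 5 were between 85.8% and 105%. These percentages restate the values that selected the genes, and Lrrc2 and Notch4 were not called in FCS/LIF.

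**Figure D3:**
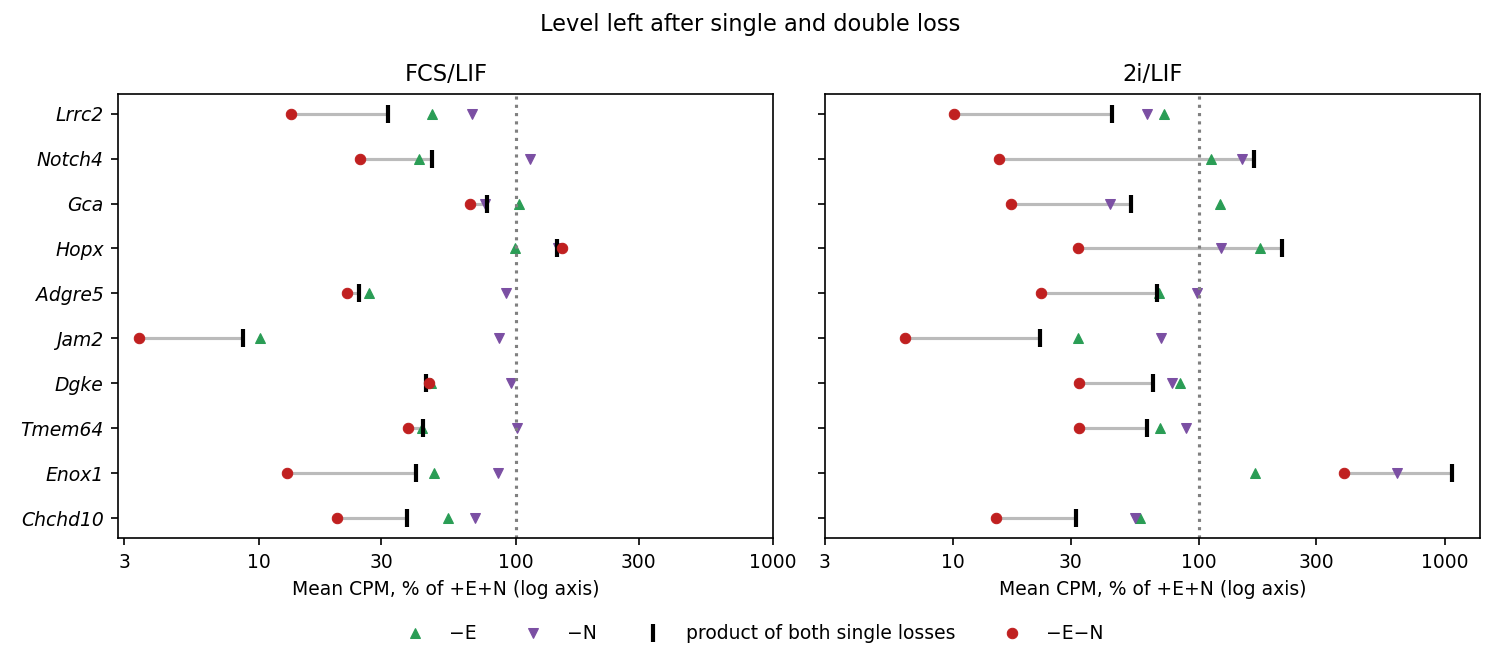
Mean CPM in −E (upward triangles), −N (downward triangles) and −E−N (circles) as a percentage of +E+N, on a log axis, with the product of both single responses as a bar, for each gene in FCS/LIF (left) and 2i/LIF (right). In 2i/LIF the single losses of Notch4 left 112% and 149% of +E+N and the double loss 15.3%, and for Jam2 in FCS/LIF 10.1% and 85.6% were left against 3.44%.

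The scale mattered for the direction. When the losses were summed in TPM instead of log2 units, the double loss lay below the sum for 6 of 10 genes in FCS/LIF and 8 of 10 in 2i/LIF. The share of all tested genes below their sum was not counted. Of those below it in FCS/LIF, Enox1 departed by −5.1 ± 1.0 TPM (SE) and Chchd10 by −30.1 ± 23.1 TPM. The departures of Lrrc2, Notch4, Gca and Tmem64 there were smaller than their SE. For Jam2 the sum of the single losses left −4.86 TPM in 2i/LIF, a level that cannot exist, and the measured 6.61 TPM stood 11.5 ± 5.38 TPM (SE) above it. In FCS/LIF the departure of Jam2 was 1.69 ± 2.44 TPM, so its sign turned in both media. Chchd10 in 2i/LIF stood 27.6 ± 35.2 TPM above the sum and Adgre5 in FCS/LIF 1.2 ± 2.52 TPM above it, both within their error, where their log2 interactions were below 0. Gca in 2i/LIF stood 14.6 TPM below the sum of 21.2 TPM, with an SE of 2.86, and Adgre5, Notch4, Hopx, Dgke and Tmem64 in 2i/LIF also lay below it by more than 3 times their SE.

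The difference between media, averaged over the 4 states, is a different contrast from the interaction, although it rests on the same libraries, including those of −E−N. The members were selected on those libraries, so the adjusted p-values below describe them and are no independent support. A gene also needs counts in a medium to be called there, and the part of this in the difference was not tested. In the average over the 4 states 5 of 10 genes were higher in 2i/LIF and 1 was lower, while 41.1% of 16147 genes tested were called in either direction. Adgre5 was higher in 2i/LIF by 2.23 ± 0.08 in log2 (SE, edgeR adjusted p = 3.64e-14), Jam2 by 1.45 ± 0.08 (adjusted p = 1.66e-11) and Gca by 1.19 ± 0.06 (adjusted p = 2.09e-12). Notch4 was higher by 0.98 ± 0.12 (edgeR adjusted p = 9.07e-07) and Tmem64 by 0.96 ± 0.06 (adjusted p = 4.94e-11). Enox1, at −3.11 ± 0.20 (edgeR adjusted p = 1.16e-10), was the member called lower in 2i/LIF. The remaining genes passed the p but not the fold of 1.5, with log2 differences of 0.33 ± 0.06 for Lrrc2, 0.16 ± 0.04 for Dgke, −0.25 ± 0.08 for Chchd10 and −0.54 ± 0.11 for Hopx. For Dgke the difference was −0.0398 by limma on log2(TPM + 1), so its direction depended on the scaling, and for Notch4 the call was lost there at 0.51.

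**Figure D4:**
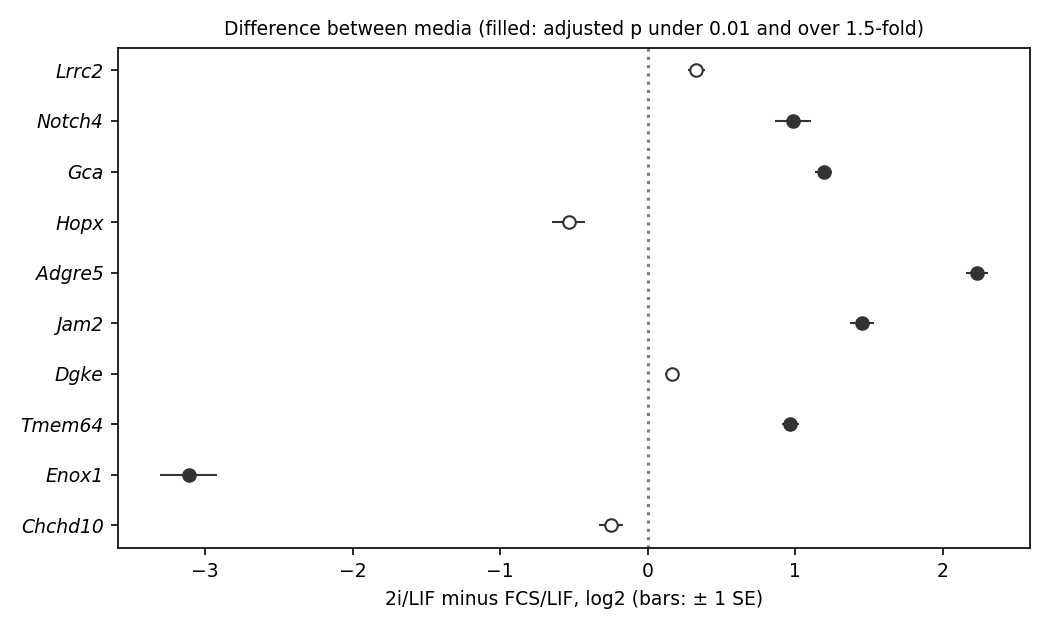
Difference of each gene between media, 2i/LIF minus FCS/LIF in log2, averaged over the 4 states, with ± 1 SE from the fit of all 20 libraries; filled points passed an adjusted p of 0.01 and a fold of 1.5. Adgre5 lies highest at 2.23 and Enox1 lowest at −3.11.

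In +E+N alone, a comparison that shares its libraries with the interaction, 4 of 10 genes were higher in 2i/LIF (Gca, Adgre5, Jam2 and Tmem64) and Enox1 was lower, against 34.7% of all tested genes called. Enox1 was lower in 2i/LIF by a log2 difference of −5.52 ± 0.43 (SE). The values for Gca, 1.82 ± 0.11, and Adgre5, 1.85 ± 0.14, were the largest in the other direction. Chchd10, Hopx and Dgke had differences between −0.13 and 0.16 in +E+N.

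The 10 genes were compared with each other over the 20 libraries, after subtracting the mean of each medium from log2(CPM + 1). These correlations describe libraries that share states, for genes that were selected on those states, and are given without a test. Over the 45 pairs Pearson r ran from −0.33 to 0.980 with a median of 0.782. Lrrc2 and Chchd10 were most alike (r = 0.980), followed by Adgre5 with Jam2 and with Tmem64 (0.977 each) and Jam2 with Tmem64 (0.975). Enox1 stood apart from the rest, with r between −0.33 (Gca) and 0.396 (Jam2), and Hopx was closest to Gca (0.710).

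Among all genes with a mean of at least 5 CPM, those that varied most like each member were named by the same measure over 20 libraries. Jam2 was most like Eif2s2 (r = 0.984) and Esrrb (0.975), Tmem64 most like Eif2s2 (0.989) and Pcsk6 (0.966), and Adgre5 most like Eif2s2 (0.974) and Elovl6 (0.971). Lrrc2 was most like Usp9x (0.976) and Ooep (0.975), Chchd10 most like Fam81a (0.976) and Fgf4 (0.969), and Notch4 most like Fgf4 (0.936) and Med30 (0.936). Gca was most like Icam1 (0.976) and Map7 (0.963) and Dgke most like Fzd5 (0.965) and Eif4ebp1 (0.959). Hopx reached 0.851 with Map4k4 and 0.835 with Fhl1, and Enox1 0.864 with Nxf1 and 0.863 with Urb2. Eif2s2 was thus named for Jam2, Tmem64 and Adgre5, and Fgf4 for Chchd10 and Notch4. As the members were selected on these same states, shared neighbours follow in part from the selection, and nothing is read from them.

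The families and pathways of the members were read from 8 lists of 93 genes. Of these, 82 were tested in FCS/LIF, where 17 rose and 3 fell after double loss. Over all 15636 tested genes of that medium 1934 rose and 1000 fell, 18.8% in either direction. In 2i/LIF 74 relatives were tested, of which 10 rose and 6 fell. Over all 14355 tested genes there 1300 rose and 1372 fell, 18.6% in either direction. The difference between the lists and all genes was not tested. The median log2 change of the lists was 0.21 and 0.16, and 0 and 0.01 over all tested genes. The interaction was called for 0 relatives in either medium by the main edgeR fit, with 11 in FCS/LIF and 15 in 2i/LIF at an unadjusted p under 0.05, and DESeq2 called 0 and 2. Other edgeR settings, including the replicate number as a block, called a few in 2i/LIF, as given at the end.

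In the Notch pathway, 6 of 28 tested genes rose and 2 fell after double loss in FCS/LIF, and 3 of 25 rose and 1 fell in 2i/LIF, beside the 18.8% and 18.6% of all tested genes called in either direction. The ligand gene Dll4 rose by 1.83 ± 0.30 in log2 (SE), the coactivator gene Maml3 by 1.78 ± 0.25, and the receptor genes Notch3 by 1.04 ± 0.07 and Notch2 by 0.83 ± 0.06. In 2i/LIF the ligand gene Dll1 rose by 4.42 ± 0.54 and Lfng, whose product adds sugars to Notch receptors, by 2.98 ± 0.40, and the coactivator gene Maml2 by 1.22 ± 0.27. Hes1, a target of the pathway, was the called gene that fell, with a change of −2.09 ± 0.13.

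Among the other junctional adhesion genes, Esam and Cxadr rose in both media, 2 of 7 tested in FCS/LIF and 2 of 8 in 2i/LIF. Beside these stand the 18.8% and 18.6% of all tested genes called in either direction. The log2 change of Esam was 1.67 ± 0.30 (SE) and 2.41 ± 0.37, and that of Cxadr 0.60 ± 0.10 and 0.72 ± 0.11. Jam3, the nearest relative of Jam2 in the list, was not called, at 0.41 ± 0.11 and −0.34 ± 0.11.

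Of the adhesion G protein-coupled receptors and their ligands, 5 of 16 tested rose and 1 fell in FCS/LIF, and 4 of 14 rose and 2 fell in 2i/LIF. The shares of all tested genes called in either direction were 18.8% and 18.6%, and the difference from them was not tested. In FCS/LIF the log2 change was 1.92 ± 0.25 (SE) for Adgrg6, 1.64 ± 0.27 for Adgrf5, 1.37 ± 0.20 for Adgra2 and 1.34 ± 0.09 for Adgrl2. In 2i/LIF it was 2.48 ± 0.25 for Adgrl2, 1.78 ± 0.38 for Adgrl3, −1.31 ± 0.19 for Celsr1 and 0.82 ± 0.18 for Adgrg6. Cd55, which encodes the ligand of Adgre5, rose in 2i/LIF by 0.72 ± 0.15.

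The remaining lists hold enzymes, calcium-binding proteins and mitochondrial proteins, again beside 18.8% and 18.6% of all tested genes called in either direction. Of the diacylglycerol kinases Dgkk rose by 1.42 ± 0.16 in log2 (SE), 1 of 9 tested in FCS/LIF, and edgeR called 0 of 5 in 2i/LIF, with 3 at an unadjusted p under 0.05 and 1 called by DESeq2. Of 6 penta-EF-hand genes, Capn2 (1.67 ± 0.15) and Sri (1.06 ± 0.19) rose in FCS/LIF, and in 2i/LIF Capn2 rose by 1.33 ± 0.31 and Capns1 changed by −0.97 ± 0.06. Among 5 tested genes of VTT-domain proteins and calcium pumps, Vmp1 rose by 0.59 ± 0.09 in FCS/LIF, and the pump genes Atp2a3 (−2.86 ± 0.26) and Atp2a2 (−0.78 ± 0.07) fell in 2i/LIF. Of 10 tested genes of the CHCH and MICOS list, edgeR and DESeq2 called 0 in either medium, with 7 in FCS/LIF and 3 in 2i/LIF at an unadjusted p under 0.05. Enox2, the relative of Enox1, was not called by edgeR, at 0.14 ± 0.16 in FCS/LIF and 0.60 ± 0.18 in 2i/LIF.

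All 10 members are protein-coding genes of GENCODE vM21 (mm10). They lie on 10 chromosomes, with Lrrc2 on chromosome 9 (110951545 to 110984066, plus strand), Notch4 on 17 (34564268 to 34588503, plus), Gca on 2 (62664285 to 62694109, plus), Hopx on 5 (77086988 to 77115121, minus) and Adgre5 on 8 (83723251 to 83741326, minus). Jam2 lies on 16 (84774123 to 84825928, plus), Dgke on 11 (89035179 to 89066850, minus), Tmem64 on 4 (15265831 to 15286753, plus), Enox1 on 14 (77156763 to 77721760, plus) and Chchd10 on 10 (75933130 to 75937747, plus). Genes on the opposite strand overlap several of them. Mmp11 and Gm867 overlap Chchd10, Ddx39 overlaps Adgre5, Kcnh7 overlaps Gca, and Dgkeos and Hopxos overlap Dgke and Hopx. The sources used here do not say that the counting was set to a strand, so reads of such partners may be shared, and these counts are less certain.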

How the data were processed

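Poly-A RNA-seq of 20 libraries was used, and 69 ChIP-seq samples were not used here. Estimated counts per gene, deposited as whole numbers without scaling between libraries, were made by the authors with RSEM from stranded read pairs placed on mm10 by STAR. The deposited TPM values come from the same RSEM run. Tool versions are not given in the sources used here. Of 54238 rows, 92 were ERCC sequences, with a total of 0 counts, and were left out. Library totals were 36514172 to 45443379 counts in FCS/LIF and 26653035 to 32526534 in 2i/LIF. At 20 counts sampling error is much larger than at 1000 or more.

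Within each medium the 4 states were fitted in edgeR 4.0.16 (R 4.3.3; TMM, quasi-likelihood) over genes having 20 counts or more in each replicate of at least one state (15636 and 14355 genes). Adjusted p-values (Benjamini-Hochberg) cover all tested genes. Media were compared in a fit of 8 groups (16147 genes). CPM is the count per 1000000 of the TMM-scaled total. Steps were tested on simulated data. Alternatives were DESeq2 1.42.0, its size factors, no filter, filterByExpr, the replicate number as a block, limma 3.58.1 on log2 TPM with a pseudocount of 1 or 0.1 added to the deposited values, all 20 libraries together, linear TPM and leaving out each library. Libraries of one group were not duplicates, since their counts varied beyond sampling.

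The members and lists were chosen with earlier results of these data known. Named besides the members are the targeted genes, up to 4 called relatives per list with the largest change in −E−N (Cd55, Jam3 and Enox2 were added after their values were seen), the 2 genes most like each member, and the genes on either side of the limit. Promoters are RefSeq sequences (GRCm38.p6), read with Python 3.11.15, and figures were drawn with matplotlib 3.10.9.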

Additional observations from a re-analysis of the deposited data

Results flagged for a closer look

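The change of 2 members went in opposite directions in the 2 media, and the difference between media was not tested. Hopx was selected by its interaction in 2i/LIF and Enox1 by that in FCS/LIF. These differences therefore follow in part from the selection and are given as a description. In the groups named below every library stood on one side of all +E+N libraries in FCS/LIF and on the other side in 2i/LIF. In FCS/LIF this sets 2 libraries against 2, and the share of all tested genes so separated was not counted. For Hopx in −E−N the log2 change was 0.59 in FCS/LIF, not called, and −1.61 in 2i/LIF, giving a difference of −2.19. For Enox1 in −N it was −0.26 in FCS/LIF, not called, and 2.67 in 2i/LIF, a difference of 2.93. In −E−N the values for Enox1 were −2.98 and 1.97, a difference of 4.94. Groups of 2 and 3 libraries were too small for a check of single outlying libraries.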

How the results depend on the processing

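The number of members with a called interaction in FCS/LIF was 3. It was 0 by limma on log2(TPM + 1), 1 on log2(TPM + 0.1) and 0 with all 20 libraries in one fit, and ranged from 0 to 3 when each library was left out. In 2i/LIF it was 8, with 2 under both limma settings, 9 with DESeq2, and 4 to 8 without single libraries. Leaving out single libraries gave 1 to 2 members lower after Esrrb loss in 2i/LIF (1 with all libraries), where DESeq2, no filter, the replicate block and all 20 libraries gave 2. For Nr5a2 loss the range was 0 to 1 in FCS/LIF (0 with all libraries) and 1 to 3 in 2i/LIF (3 with all libraries). Relatives with an interaction in 2i/LIF numbered 0, and 2 with DESeq2, 1 with no filter, 3 with the replicate block and 1 with all 20 libraries. Over all genes DESeq2 called an interaction for 54 lower and 9 higher genes in FCS/LIF, against 5 and 0 by edgeR, and for 178 and 125 in 2i/LIF, against 30 and 14. The cause of these shifts was not tested, and fewer samples alone reduce calls when libraries are left out. The other counts stayed within 1.5 times the value reported. They ranged over left-out libraries from 7 to 8 for Esrrb loss in FCS/LIF, 8 to 9 and 9 to 9 for double loss, 4 to 5 and 9 to 9 against −E, 8 to 8 and 9 to 9 against −N, 14 to 22 and 14 to 18 for relatives after double loss, 0 to 0 for relatives with an interaction, and 6 to 7 and 5 to 6 for the media.

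Single interactions turned in sign in FCS/LIF when a library was left out for Hopx (−0.27 to 0.37), Dgke (−0.0389 to 0.15) and Tmem64 (−0.36 to 0.0382), none of them called. In linear TPM the interaction turned for Jam2 (1.69 in FCS/LIF and 11.5 in 2i/LIF), Adgre5 in FCS/LIF (1.2) and Chchd10 in 2i/LIF (27.6). The media difference of Dgke turned with limma (−0.0398 and −0.0631).

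The labels do not say what libraries with one number share. In 2i/LIF 17 of 18 same-numbered pairs had a correlation of deviations above 0.1 (lowest −0.00445), and in 34 of 36 comparisons a library was most like its own number. In FCS/LIF, with 2 numbers, all 12 pairs were above 0.1. There the 2 numbers give the same correlation for any pair of states by construction, so these 12 values are not separate. With the number as a block 4 members in FCS/LIF and 9 in 2i/LIF had a called interaction, and 1 was lower after Nr5a2 loss in FCS/LIF. Depth limits Hopx, Notch4 in −E−N and Enox1 in 2i/LIF.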
